A study of Mus musculus with 21 samples.

Results

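LSK cells are the lineage-negative, Sca-1-positive, Kit-positive fraction of mouse bone marrow, which holds the blood stem cells and the multipotent progenitors. Their RNA was compared between Stag2 knockout cells (KO, genotype Stag2KO) and wild-type cells (WT, genotype Stag2WT). All libraries labelled as sorted LSK were taken, which were 7 of the 21 libraries of the series, with 3 from KO and 4 from WT. The remaining libraries hold 7 granulocyte and monocyte progenitor (GMP) and 7 erythroid progenitor (CFU-E) samples, and they are used only where a KO effect in LSK is set against theirs. Both LSK groups came from marrow depleted of lineage-positive cells with magnetic beads before the sort, with TRIzol RNA and full-transcript SMARTer amplification. The labels name no treatment, and the allele, the driver of any deletion, the strain, the age and the sex of the mice are not stated in the material used here. The replicates carry numbers but no statement of separate mice, and the p-values describe only how far the libraries spread, technical sources included.

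Cohesin is a ring of SMC1A, SMC3 and RAD21 that carries either STAG1 or STAG2 as a further subunit. It holds sister chromatids together and, with the DNA-binding protein CTCF, folds chromatin into loops that set which enhancers meet which promoters. STAG2 is recurrently mutated in human myeloid malignancies. LSK cells express low levels of lymphoid and myeloid genes before they commit to a lineage, a state known as priming, so lineage transcripts in such a sort can come from primed progenitors or from other cells that pass the gate.

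Total counts were 28697123 to 32196233 per KO library and 22813333 to 32165806 per WT library. Each library had at least 1 count in 24607 to 25387 genes. No pair of libraries agreed within sampling noise, since the smallest chi-square for each degree of freedom was 24.4, between WT 2 and WT 4. The defining genes of the gate were present in every library. Kit, the receptor for stem cell factor, was at 473 to 622 CPM (read counts scaled to library size with TMM factors) in KO and 349 to 780 CPM in WT, and Ly6a, which encodes Sca-1, at 126.0 to 210 CPM in KO and 56.5 to 158 CPM in WT. The 12 gate and progenitor markers summed to 4304 to 4753 CPM in KO and 4122 to 5114 CPM in WT. Across genes, WT 1 correlated least with the rest of its group, at a mean of 0.971, where the other WT libraries had 0.976 to 0.979. WT 1 correlated at 0.984, 0.975 and 0.985 with KO libraries 1 to 3. With WT 2, WT 3 and WT 4 it correlated at 0.966, 0.980 and 0.968. More than 4-fold apart from WT 1 were 90, 178 and 92 genes in KO 1 to 3, and 218, 164 and 195 genes in WT 2 to 4.

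The targeted gene was examined first, as a check of the labels. Stag2 was at 79.9, 67.8 and 69.2 CPM in KO libraries 1 to 3, against 187, 171, 148 and 158 CPM in WT libraries 1 to 4, and this order of libraries is kept throughout. Every KO library lay below every WT library (log2 fold change -1.20 ± 0.128, SE; edgeR quasi-likelihood test with Benjamini-Hochberg adjustment, adjusted p = 0.027). Transcript was therefore reduced but still counted in all 3 KO libraries. Stag1, the alternative subunit, was at 169, 135 and 157 CPM in KO, against 129, 103, 116.9 and 107 CPM in WT. Its KO libraries all lay above the WT libraries, and the difference did not pass the threshold (log2 fold change 0.43 ± 0.128, adjusted p = 0.388). Stag3, the form known from meiosis, had 5.46, 9.59 and 5.19 CPM in KO and 3.06, 3.75, 4.02 and 1.39 CPM in WT, also without overlap and without passing (1.14 ± 0.384 on the log2 scale, adjusted p = 0.473). The ring subunits Smc1a, Smc3 and Rad21, the loader gene Nipbl and the release factor gene Wapal had log2 fold changes of 0.13, 0.12, 0.03, 0.05 and 0.08. Of 21 cohesin genes and regulators, Stag2 was called and 20 were not, and 17 were positive, with a median of 0.13.

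Few genes were called in the main fit, and with 3 and 4 libraries that count does not measure the size of the KO effect. Of 17664 genes tested, 14 passed an adjusted p of 0.05, which is 0.0793%, with 5 higher in KO (0.0283%) and 9 lower (0.051%). The median log2 fold change over all tested genes was 0.004, and 50.6% of genes were positive. TMM scaling itself holds these values close to an even balance. At an unadjusted p of 0.05, 1392 genes differed, 7.88% of those tested, of which 457 were higher (2.59%) and 935 lower (5.29%) in KO. All KO libraries lay above all WT libraries in 576 genes (3.26%) and below them in 818 genes (4.63%). In bulk RNA, fewer cells of a type and less RNA per cell cannot be told apart, and this holds for every lineage gene below.

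**Figure D1:**
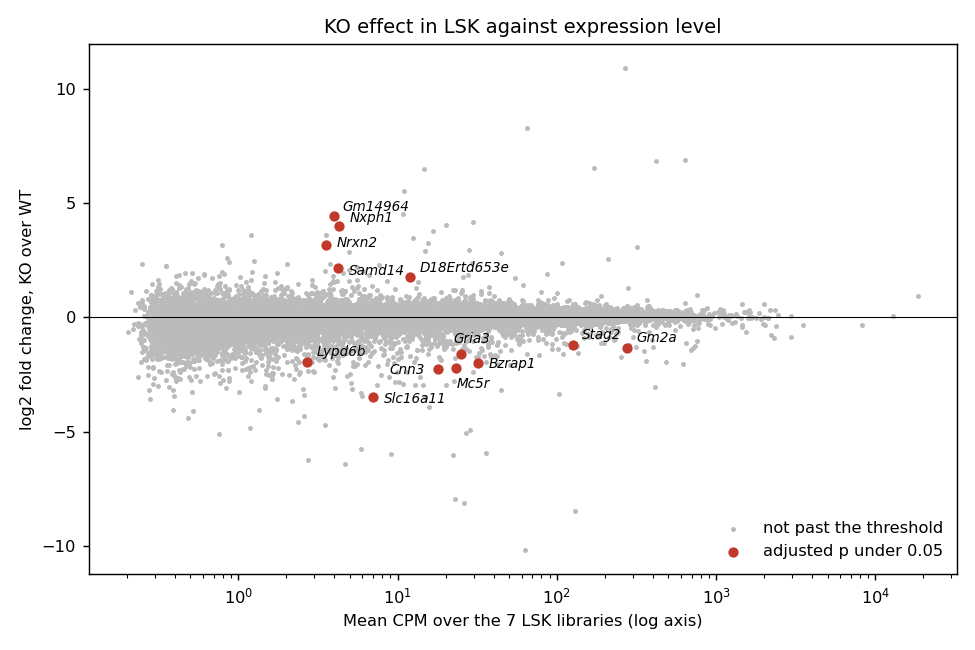
Log2 fold change of KO over WT (vertical axis) against the mean CPM over the 7 LSK libraries (horizontal log axis) for the 17664 genes tested, less 1 called gene that is not shown. The other 13 genes past an adjusted p of 0.05 are red and named, from Gm14964 at 4.43 to Slc16a11 at -3.51, while most genes sit close to the median of 0.004.

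The called genes include several that are best known from synapses. Nxph1, a secreted ligand of neurexins, was at 6.77, 10.7 and 10.3 CPM in KO, against 0.326, 0.667, 0.556 and 0.778 CPM in WT. It rose in KO by 3.99 ± 0.335 on the log2 scale (adjusted p = 0.00851), and its lowest KO library stood far above its highest WT library. Nrxn2, a presynaptic neurexin that such ligands bind, rose as well, to 10.98, 4.98 and 5.72 CPM in KO, against 1.04, 0.375, 0.850 and 0.941 CPM in WT (3.16 ± 0.411 on the log2 scale, adjusted p = 0.0464). Gria3, an AMPA-type glutamate receptor subunit, fell to 11.1, 12.7 and 10.9 CPM in KO, against 31.9, 36.0, 35.2 and 37.4 CPM in WT. Its libraries within a group were close to each other, with a log2 fold change of -1.60 ± 0.14 (adjusted p = 0.00851). Bzrap1, the older symbol of Tspoap1, encodes a presynaptic RIM-binding scaffold and fell to 11.1, 16.4 and 7.91 CPM in KO, against 41.8, 48.8, 42.4 and 54.8 CPM in WT. A list of 25 synaptic adhesion and glutamate receptor genes, drawn up with these calls known and given only as a description, had 16 members that passed the filter on low counts, of which Nxph1 and Nrxn2 rose, Gria3 fell and 13 were not called. Its median was 0.03.

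The gene counted as Gm14964 rose with Nrxn2, and it is named here after its value was seen. It was at 13.2, 6.05 and 6.83 CPM in KO, against 0.326, 0.125, 0.458 and 0.696 CPM in WT (4.43 ± 0.503 on the log2 scale, adjusted p = 0.0349). In GENCODE M21, Gm14964 is an antisense gene that lies inside Nrxn2 on the opposite strand. The strand setting of the counting is not stated in the material used here, so reads of the pair cannot be told apart. The order of the 3 KO libraries was the same for both genes. The order of the 4 WT libraries was not, with WT 4 highest for Gm14964 and WT 1 highest for Nrxn2.

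Receptors, transporters and signalling genes made up most of the remaining calls. Slc16a11, a monocarboxylate transporter family member, fell to 0.950, 0.913 and 1.15 CPM in KO, against 7.14, 14.9, 14.9 and 8.88 CPM in WT (log2 fold change -3.51 ± 0.349, adjusted p = 0.0186). The melanocortin receptor gene Mc5r fell to 5.40, 8.52 and 8.82 CPM in KO, against 47.3, 27.1, 36.9 and 29.3 CPM in WT. D18Ertd653e, the older symbol of Ldlrad4, encodes a membrane protein that dampens TGF-beta signalling, and it rose to 20.1, 21.6 and 18.4 CPM in KO, against 7.37, 4.46, 6.34 and 5.81 CPM in WT. Samd14, which promotes Kit signalling in erythroid progenitors, rose to 9.53, 7.34 and 5.96 CPM in KO, against 1.63, 1.46, 1.60 and 2.13 CPM in WT. Lypd6b, a lipid-anchored modulator of nicotinic receptors, fell to 1.19, 0.875 and 1.011 CPM in KO, against 4.01, 3.50, 3.79 and 4.62 CPM in WT. None of these genes had a KO library within the range of the WT libraries, as is the case for all 14 called genes. The same values gave the calls, so this separation adds no support to them.

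Cnn3 and Gm2a fell in KO and have roles inside the cell. Cnn3, an actin-binding calponin, was at 5.10, 5.10 and 6.80 CPM in KO, against 23.8, 30.4, 28.2 and 25.6 CPM in WT, the smallest p of the comparison (log2 fold change -2.25 ± 0.185, adjusted p = 0.00851). Gm2a, the lysosomal activator of ganglioside breakdown and the most abundant called gene, was at 140.4, 142 and 160 CPM in KO, against 313, 319, 422 and 430.5 CPM in WT (log2 fold change -1.33 ± 0.162, adjusted p = 0.0369).

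**Figure D2:**
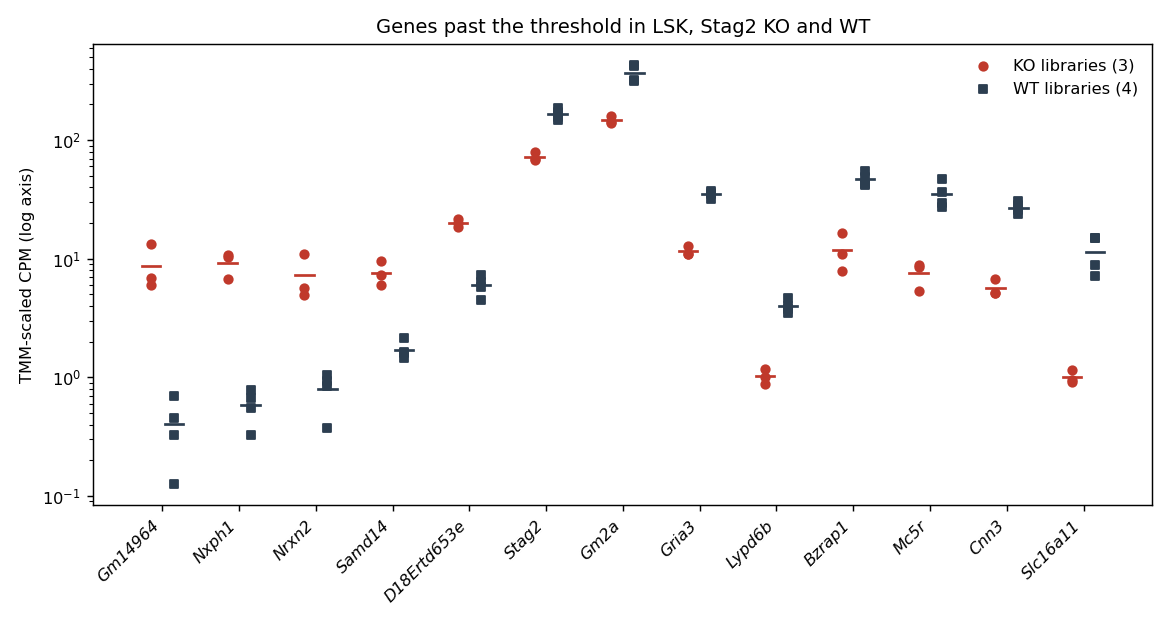
TMM-scaled CPM (log axis) of 13 of the 14 called genes in each LSK library, KO as red circles and WT as dark squares, with the group mean as a line, ordered by log2 fold change. In every gene the KO libraries sit wholly above or wholly below the WT libraries, and Gm14964, Nxph1 and Nrxn2 have WT means under 1 CPM.

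The calls depended on which libraries entered the fit. With KO 2 or WT 3 left out, 0 genes were called (1283 and 1174 genes at an unadjusted p of 0.05), with 2 without KO 1, 4 without KO 3, 4 without WT 4, 9 without WT 2 and 123 (0.706% of those tested) without WT 1. Of the 14 genes, 14 were among the 123 called without WT 1, 8 among the 9 without WT 2, 4 among the 4 without WT 4, 2 among the 4 without KO 3 and 1 among the 2 without KO 1. The calls of Cnn3 and Nxph1 ended at adjusted p of 0.0511 without KO 2 and 0.0615 without WT 3, and that of Cnn3 also without KO 1 (0.0722). Gria3 lost its call without KO 1, KO 2, KO 3 or WT 3 (0.0908, 0.0511, 0.0799 and 0.0615), and Stag2 without these or WT 4 (0.124, 0.151, 0.132, 0.0657 and 0.0681). Over all settings tried, including tests, filters, covariates, blocks and libraries left out, each of the 14 genes kept its direction, with Cnn3 between -2.40 and -2.17, Nxph1 between 3.79 and 4.39, and Gria3 between -1.66 and -1.53 on the log2 scale. The calls of the other 10 genes ended under at least 4 of these 7 omissions, with adjusted p up to 0.255.

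Called genes were set beside their neighbours on the chromosome, in the gene order of RefSeq, a look taken after the values were seen; 92.1% of tested genes could be placed. Gria3 lies 3 tested genes away from Stag2 on the X chromosome. The 2 genes between them, Thoc2 of the mRNA export complex and Xiap, an inhibitor of apoptosis, had log2 fold changes of 0.01 ± 0.118 and 0.07 ± 0.166. Thoc2 was at 176, 147 and 144 CPM in KO and 151, 165, 144 and 161 CPM in WT. Of the 30 tested genes nearest to Stag2, 15 on each side, 17 were negative and 13 positive, and Gria3 was the called gene among them. D18Ertd653e, which rose, and Mc5r, which fell, also lie 3 tested genes apart, on chromosome 18. The genes between them, 4933403F05Rik and Rnmt, had log2 fold changes of 0.06 and 0.00, and Tcf4 on the other side of Mc5r was at 0.41 (adjusted p = 0.522). Next to Slc16a11 stands Clec10a, a lectin of dendritic cells and macrophages, at 1.42, 1.29 and 1.95 CPM in KO, against 7.63, 4.55, 6.08 and 6.51 CPM in WT, just short of the threshold (log2 fold change -1.99 ± 0.279, adjusted p = 0.0617).

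The genes closest to the threshold were examined next, taking in each direction the 8 smallest p of genes whose KO and WT libraries did not overlap and whose mean reached 5 CPM. On the higher side stood Robo3, an axon guidance receptor of the Roundabout family, at 16.9, 16.3 and 8.96 CPM in KO, against 3.26, 3.96, 1.99 and 2.29 CPM in WT (log2 fold change 2.29 ± 0.319, adjusted p = 0.0617). Aif1l, an actin-binding protein gene, and Islr, a leucine-rich repeat protein of the immunoglobulin superfamily, stood at 1.86 and 2.18 on the log2 fold change scale (adjusted p = 0.102 and 0.146). Il17re, a receptor chain for interleukin-17C, was at 34.4, 29.6 and 42.1 CPM in KO, against 20.4, 16.6, 17.0 and 14.5 CPM in WT. Tsc22d1, Emid1, Bex6 and the membrane-bending protein gene Bin1 had log2 fold changes of 0.65 to 0.86, with adjusted p of 0.106 to 0.164.

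On the lower side stood Gas6, the ligand of the TAM receptor kinases, at 3.06, 2.43 and 2.89 CPM in KO, against 6.33, 8.80, 7.65 and 7.86 CPM in WT (log2 fold change -1.45 ± 0.216, adjusted p = 0.0921). Sgk1, a kinase induced by serum and glucocorticoids, was at 23.2, 19.8 and 12.5 CPM in KO, against 45.8, 77.3, 49.4 and 64.9 CPM in WT (adjusted p = 0.102). Fgl2, an immunoregulatory fibrinogen-like protein gene, was at 45.9, 56.6 and 47.9 CPM in KO, against 89.8, 158, 158 and 211 CPM in WT (adjusted p = 0.122). Of these 3 genes, Fgl2 and Sgk1 varied most among the WT libraries, with WT 1 lowest in both. Fam46a, the calcium sensor gene Kcnip3, the small GTPase gene Rap2a and the glypican gene Gpc1 had log2 fold changes of -1.23, -1.07, -0.87 and -1.43, with adjusted p of 0.0942 to 0.131. The remaining gene of the 8, Faim3, is described with the B cell genes.

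Of 22 genes of lymphoid priming, 0 were called, 14 were negative and the median was -0.12. All KO libraries lay below all WT libraries in 4 of the 22 and above them in 1, where the shares over all genes were 4.63% and 3.26%. Flt3, the cytokine receptor that marks the step toward lymphoid-primed progenitors, was at 116, 129 and 142 CPM in KO, against 176, 251, 253 and 192 CPM in WT (log2 fold change -0.76 ± 0.165, adjusted p = 0.206). The chemokine receptor gene Ccr7 was at 2.997, 2.55 and 3.42 CPM in KO, against 4.08, 9.92, 9.02 and 11.5 CPM in WT (adjusted p = 0.236). Satb1, a chromatin organizer of lymphoid progenitors, stood the other way, at 85.4, 102.5 and 98.5 CPM in KO and 78.8, 43.0, 80.4 and 48.7 CPM in WT. Without WT 1, 1 of these genes was called, Ccr7 (-1.77 on the log2 scale, adjusted p = 0.0233), where 0.706% of all genes were called. WT 1 was the lowest WT library for Ccr7, so its omission widens the difference by itself.

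Of 17 early B cell genes in the table, 16 passed the filter, 0 were called and 14 were negative, with a median of -1.04 against 0.004 over all genes. All KO libraries lay below all WT libraries in 5 of the 16, or 31.2%, where the share over all genes was 4.63%. Ebf1, a transcription factor that commits cells to the B lineage, was at 0.861, 0.875 and 1.53 CPM in KO, against 2.84, 12.8, 7.26 and 9.62 CPM in WT. Spib, an Ets factor of B and plasmacytoid dendritic cells, was at 0.950, 1.75 and 1.46 CPM in KO, against 2.80, 7.13, 4.61 and 5.81 CPM in WT. The summed immunoglobulin level overlapped between the groups. With that level as a covariate the list median was -1.25, beside -1.04 in the main fit. It was -0.86 with the neutrophil granule level as a covariate and -0.73 without WT 2 and WT 4. A cause was not tested. In Ebf1 and Spib WT 1 was the lowest WT library and WT 2 the highest. Without WT 1, 4 members of the list were called, among them Ebf1 (-3.18 on the log2 scale, adjusted p = 0.0146). The share of all genes called in that fit was 0.706%. Leaving out the WT library closest to KO widens a difference by itself.

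Of 19 mature B and plasma cell genes tested, 0 were called, 11 were negative, and the median was -0.03, which ran from -1.04 without KO 2 to 0.14 without KO 1. Faim3, the older symbol of the IgM receptor gene Fcmr, was at 2.02, 3.80 and 2.86 CPM in KO, against 7.63, 22.4, 13.8 and 16.4 CPM in WT (log2 fold change -2.38 ± 0.393, adjusted p = 0.131). Cr2, the complement receptor CD21, was at 1.16, 1.18 and 2.13 CPM in KO, against 5.05, 6.17, 4.61 and 3.97 CPM in WT, and Cd22, an inhibitory lectin, at 1.84, 3.20 and 5.47 CPM in KO, against 9.81, 31.8, 18.6 and 25.7 CPM in WT. With the further surface genes Fcer2a, Ms4a1 and Cxcr5, all 3 KO libraries lay below all WT libraries in 6 of the 19 (31.6%, against 4.63% over all genes). Other members did not separate, surface genes among them. The surface gene Cd72 was at 114, 98.4 and 115 CPM in KO and 109, 93.7, 95.4 and 93.5 CPM in WT, and the plasma cell marker Sdc1 at 16.4, 146 and 34.6 CPM in KO and 13.3, 30.4, 84.2 and 30.4 CPM in WT. Igj, the joining chain of polymeric antibody, was at 1107, 4003 and 1176 CPM in KO and 449.5, 2040, 3446 and 2571 CPM in WT, and the transcription factor gene Irf4 at 3.62, 21.2 and 5.995 CPM in KO and 0.619, 6.42, 23.9 and 8.51 CPM in WT. KO 2 had the highest Igj and Irf4 of its group.

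The monocyte and macrophage list had 28 members that passed the filter, with 0 called and 26 negative, and a median of -1.07, and all KO libraries lay below all WT libraries in 8 (28.6%, against 4.63% over all genes). Klf4, a transcription factor of monocytes, was at 2.05, 2.43 and 2.34 CPM in KO, against 3.68, 7.30, 6.70 and 8.96 CPM in WT (log2 fold change -1.55 ± 0.318, adjusted p = 0.191). Emr1, the macrophage surface protein F4/80, was at 0.0297, 0.380 and 0.418 CPM in KO, against 1.53, 2.17, 2.19 and 3.60 CPM in WT, and Ms4a6b at 12.6, 15.5 and 13 CPM in KO, against 20.5, 36.6, 24.7 and 39.6 CPM in WT (adjusted p = 0.198 and 0.205). The list summed to 759, 2013 and 1104 CPM in KO and 962, 2000, 2323 and 2499 CPM in WT. These sums overlapped, since KO 2 stood above 2 of the WT libraries, counting WT 1 and WT 2, and WT 1 stood below 2 of the KO libraries.

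All 11 MHC class II genes had a negative log2 fold change, with a median of -0.64, yet in 0 of the 11 did all KO libraries lie below all WT libraries. H2-Aa, a class II alpha chain, was at 162, 259 and 238 CPM in KO and 136, 632, 464.5 and 906 CPM in WT, so WT 1 was the lowest of the 7. Without WT 1 it was the 1 member called (log2 fold change -1.61, adjusted p = 0.0461), where 0.706% of all genes were called. Leaving out the lowest WT library widens such a difference by itself, so this call is no separate support. H2-DMa, which helps load peptides, varied little within WT, at 116, 166 and 139 CPM in KO and 165, 164, 189 and 192 CPM in WT. Cd74, the invariant chain, was at 392.1, 2045 and 1079 CPM in KO and 438, 1911, 2526 and 2447 CPM in WT. Of 18 dendritic cell genes, 12 were negative and 0 were called, with all KO libraries below WT in 4 and above WT in 1, Tcf4 (over all genes 4.63% and 3.26%). Clec9a, a marker of cross-presenting dendritic cells, was at 2.91, 7.23 and 4.01 CPM in KO and 0.880, 13.7, 11.7 and 22.4 CPM in WT.

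Among genes of platelets and megakaryocytes, 5 of 20 tested members had all KO libraries above WT and 4 had all KO libraries below (over all genes 3.26% and 4.63%), while 0 were called and the median was 0.20. Itgb3, the beta chain of the fibrinogen receptor, was at 31.99, 29.2 and 37.0 CPM in KO, against 20.6, 11.7, 16.3 and 9.25 CPM in WT (log2 fold change 1.18 ± 0.262, adjusted p = 0.219), and Treml1 at 5.34, 4.07 and 4.95 CPM in KO, against 2.93, 2.29, 2.16 and 1.56 CPM in WT. Gp5, F2r and Plek, which encode a von Willebrand factor receptor subunit, a thrombin receptor and pleckstrin, were also higher without overlap. On the lower side, Vwf, which marks platelet-biased stem cells, was at 7.86, 6.96 and 9.90 CPM in KO, against 21.9, 35.0, 15.8 and 12.8 CPM in WT (log2 fold change -1.37 ± 0.345, adjusted p = 0.268). Cd9 was at 85.5, 64.4 and 88.5 CPM in KO, against 109, 145, 110 and 152 CPM in WT. Selp and Clec1b, a selectin and a platelet lectin receptor, were also lower without overlap. Without WT 1, 3 members of this list were called, Gp5 (1.51 on the log2 scale, adjusted p = 0.0327) and F2r (adjusted p = 0.0308) among them. In that fit 0.706% of all genes were called. WT 1 was the highest WT library for Gp5 and F2r, so its omission widens their differences by itself.

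Of 24 genes of long-term stem cells 18 were negative, with a median of -0.32, and 0 were called. All KO libraries lay below all WT libraries in 5 and above them in 1 (over all genes 4.63% and 3.26%). Mecom, a regulator of stem cell quiescence, was at 45.7, 33.8 and 47.4 CPM in KO and 66.6, 71.1, 55.7 and 52.1 CPM in WT, and Meis1, a Hox cofactor, at 352, 274 and 309 CPM in KO and 329, 320, 282 and 261 CPM in WT. Robo4, an adhesion receptor of stem cells, was at 15.8, 19.4 and 24.1 CPM in KO, against 14.3, 10.6, 11.9 and 6.96 CPM in WT. Of 21 p53 response genes 3 had all KO libraries below WT (14.3%, against 4.63% over all genes). Plk2 was at 4.81, 1.86 and 3.66 CPM in KO, against 10.01, 17.7, 9.35 and 13.4 CPM in WT. The stress-induced sestrin gene Sesn2 was at 11.9, 11.1 and 9.83 CPM in KO, against 20.997, 20.1, 21.7 and 15.3 CPM in WT. Ddit4, an inhibitor of mTORC1, was the remaining gene (adjusted p = 0.171, 0.198 and 0.316 in this order). The median of that list was 0.05, and its classical member Cdkn1a was at 17.5, 21.99 and 20.4 CPM in KO and 17.3, 12.3, 20.2 and 11.2 CPM in WT. Of 32 interferon response genes 29 were positive, with a median of 0.28. All KO libraries lay above WT in 4 and below WT in 1 (over all genes 3.26% and 4.63%). By p the list was led by Gbp2, at 57.5, 63.1 and 59.5 CPM in KO, against 47.2, 45.5, 37.1 and 43.0 CPM in WT (log2 fold change 0.47 ± 0.119, adjusted p = 0.268). The cell cycle lists had medians of 0.17 for S phase and 0.11 for G2/M phase (-0.09 without WT 2 and WT 4), with 0 genes called in either.

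The 4 WT libraries differed among themselves most often in immunoglobulin and late neutrophil transcripts, among the lists of 10 or more tested genes. Over all tested genes the median range of log2(CPM + 1) across the WT libraries was 0.54, and 355 genes (2.01%) had a range over 2, which is more than 4-fold. In the late neutrophil granule list 23 of 36 genes had such a range, and in the immunoglobulin list 72 of 89. The corresponding count was 0 of 21 for cohesin and its regulators, 0 of 12 for gate markers, 0 of 32 for interferon response and 0 of 26 for S phase. Between these stood 7 of 19 mature B and plasma cell, 6 of 16 mast cell, basophil and eosinophil, 4 of 11 MHC class II, 6 of 18 dendritic cell and 9 of 28 monocyte genes.

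Late neutrophil genes are expressed in the later stages of granulocyte maturation, and many of them encode granule proteins. Their summed level was 1781, 2401 and 3218 CPM in KO and 1280, 12070, 2757 and 6685 CPM in WT, a 9.43-fold range within WT. S100a8, a subunit of calprotectin, was at 164, 215 and 289 CPM in KO and 73.1, 1963, 395 and 1236 CPM in WT, and Camp, the cathelicidin gene, at 94.1, 125 and 199 CPM in KO and 25.6, 1249, 156 and 675.5 CPM in WT. The KO libraries all lay between WT 1 and WT 3 in S100a8, and WT 2 and WT 4 stood above all others in both genes. Ngp, Ltf and Chi3l3, further granule genes, ranged from 99.3 to 2209, 67.4 to 932 and 20.5 to 1251 CPM over WT. WT 2 was the highest WT library in 33 of 36 genes of the list and WT 1 the lowest in 26. The median log2 fold change of the list, -1.12, was 0.15 with WT 2 and WT 4 left out. These are the highest WT libraries for this list, so their omission raises the median by itself. Within the list 31 genes were negative and 5 positive. All KO libraries lay above all WT libraries in 1 of the 36 (over all genes 3.26%), Clec4e, a receptor for mycobacterial glycolipids. It was at 115, 93.4 and 88.4 CPM in KO and 66.2, 66.6, 48.0 and 57.9 CPM in WT (log2 fold change 0.73 ± 0.154, adjusted p = 0.194).

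The primary granule genes, made earlier in the lineage and already in granulocyte and monocyte progenitors, ordered the WT libraries in another way. They summed to 9138, 20630 and 12590 CPM in KO and 14660, 17030, 23350 and 22680 CPM in WT, a 1.59-fold range within WT. Mpo, myeloperoxidase, was at 3554, 11740 and 6189 CPM in KO and 8088, 5836, 12890 and 9675 CPM in WT, so WT 2, the highest library for late granule genes, was the lowest of its group for Mpo. Elane, neutrophil elastase, was at 995, 2297 and 1319 CPM in KO and 1351, 2849, 3233 and 4167 CPM in WT. WT 4 was highest in 11 of 19 genes of this list and WT 1 lowest in 15. Of the 19 genes, 0 were called and 16 were negative, with a median of -0.55 (-0.20 without WT 2 and WT 4). All KO libraries lay below all WT libraries in 2 (10.5%, against 4.63% over all genes), Hk3 and Serpinb1a. Serpinb1a, an inhibitor of neutrophil serine proteases, was at 277, 261.5 and 218 CPM in KO, against 374, 619, 408 and 614 CPM in WT (log2 fold change -0.999 ± 0.216, adjusted p = 0.205). Gfi1, a repressor that directs granulocyte fate, was at 25.7, 51.9 and 31.6 CPM in KO, against 63.9, 61.0, 85.6 and 77.1 CPM in WT (log2 fold change -0.98 ± 0.244, adjusted p = 0.268). It belongs to a list of myeloid regulators, of which 20 were tested and 0 were called. Of these, 12 were negative and 8 positive, with a median of -0.04. All KO libraries lay below all WT libraries in 2 of the 20 (10%, against 4.63% over all genes), Klf4 and Gfi1.

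**Figure D3:**
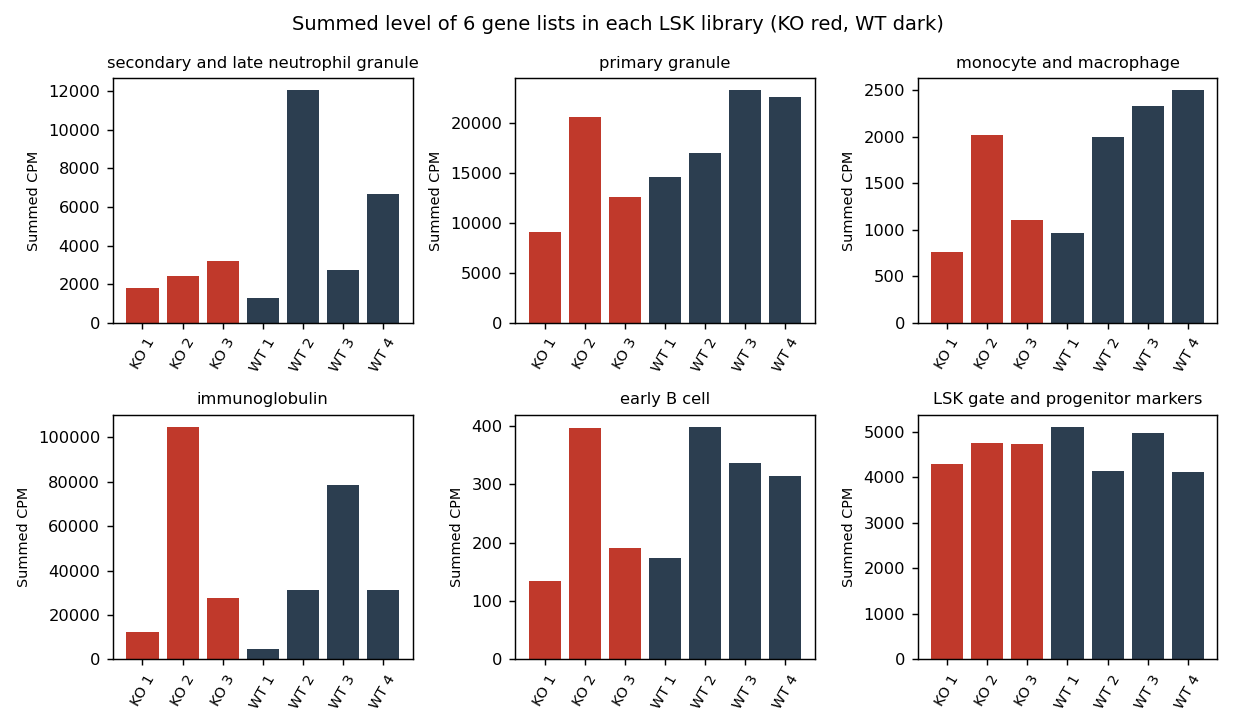
Summed TMM-scaled CPM of 6 gene lists in each LSK library, KO libraries in red and WT libraries in dark, each panel with its own linear axis from 0. Late neutrophil granule genes peak in WT 2 at 12070 CPM and immunoglobulin genes in KO 2 at 104700 CPM, while the gate markers stay between 4122 and 5114 CPM.

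Immunoglobulin transcripts varied even more. They took 1.3%, 9.59% and 2.73% of the counts in KO and 0.487%, 3.27%, 7.46% and 3.26% in WT, and their summed level spanned 16.2-fold within WT. Ighm, the heavy chain of IgM, was at 4845, 58960 and 12570 CPM in KO and 1263, 10370, 30290 and 11110 CPM in WT, which made it the most abundant gene of the list in KO 2. Igkc, the constant region of the kappa light chain, was at 4295, 27110 and 8436 CPM in KO and 1899, 11550, 25680 and 11580 CPM in WT. WT 1 was the lowest library and KO 2 the highest for both genes. The order of the WT libraries by immunoglobulin (WT 3 highest, with WT 2 and WT 4 nearly equal) was not their order by late neutrophil genes (WT 2, WT 4, WT 3), and WT 1 was lowest in both.

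The make-up of these transcripts set WT 1 apart in kind as well as in amount. Each B cell joins 1 heavy and 1 light variable (V) segment into its antibody genes, and the counts can be split by V segment. Among 100 kappa V segments, Igkv14-126 took 28.0%, 27.4% and 69.7% of the kappa V counts in KO and 0.111%, 57.5%, 75.5% and 60.3% in WT. Among 37 heavy V segments, Ighv11-2 took 75.5%, 62.3% and 85.8% in KO and 0.538%, 65.5%, 93.5% and 93.7% in WT. Both segments were the leading ones in 6 of the 7 libraries, and in WT 1 they had 28 and 4 counts. In WT 1 the leading segments were Igkv2-137, with 17.7% of 25275 kappa V counts, and Ighv1-12, with 34.4% of 744 heavy V counts. Such shares come from amplified reads without molecular identifiers, so they describe read counts and not cells. In mice, Ighv11-2 paired with Igkv14-126 is known as a recurrent antibody of B-1a cells that binds phosphatidylcholine.

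The 3′ ends of the reference transcripts of these 2 segments, which led the V counts in 6 libraries, are shown from GENCODE M21 (GRCm38), with capitals at the bases that differ from the most similar V segment of the same locus.
Ighv11-2: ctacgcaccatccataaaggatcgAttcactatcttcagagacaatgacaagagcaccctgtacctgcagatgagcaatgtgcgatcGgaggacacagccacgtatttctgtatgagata
Igkv14-126: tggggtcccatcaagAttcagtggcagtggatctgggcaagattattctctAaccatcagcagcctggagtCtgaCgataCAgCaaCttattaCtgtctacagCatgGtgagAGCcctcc
Ighv11-2, on chromosome 12, is 98.9% identical over 353 bases to Ighv11-1, which is not among the genes of the count table, and 2 of the 120 bases shown differ. Reads of Ighv11-1 may therefore be counted under Ighv11-2. Igkv14-126, on chromosome 6, is 91.6% identical over 358 bases to Igkv14-111, and 14 of the 120 bases shown differ. Reads that share a stretch between such copies make single segments uncertain, more so for Ighv11-2.

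**Figure D4:**
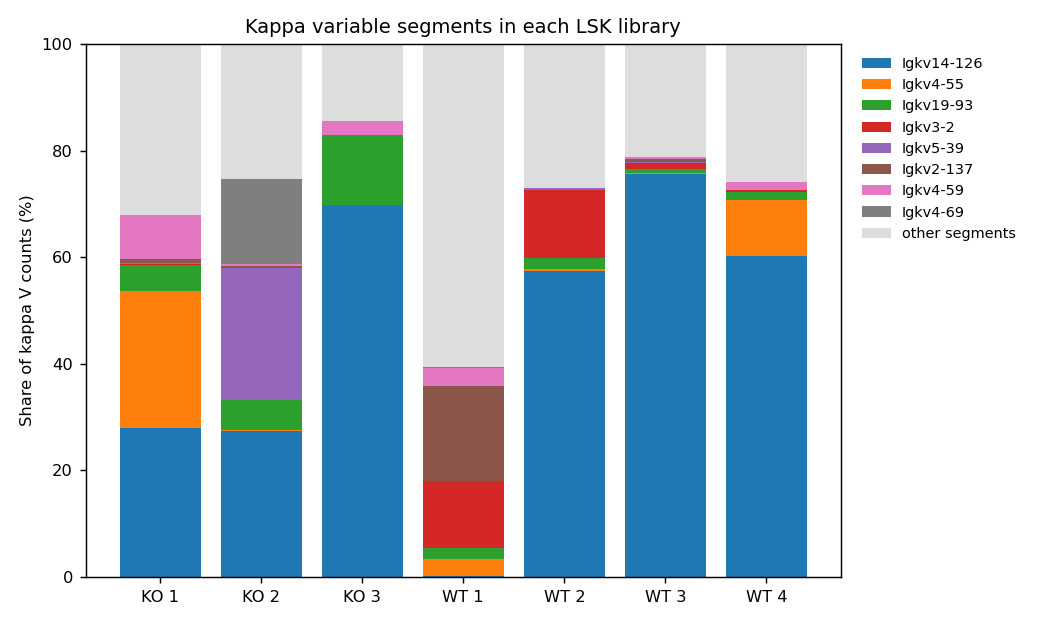
Share of the kappa V counts (percent, vertical axis) taken by the 8 segments with the highest overall share in each LSK library, the rest in grey. Igkv14-126 takes 27.4% to 75.5% in 6 libraries and 0.111% in WT 1, where Igkv2-137 and Igkv3-2 lead.

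Beyond the leading segments, others were abundant in 1 or 2 libraries. Igkv5-39 and Igkv4-69 took 24.9% and 16.0% of the kappa V counts in KO 2 and at most 0.345% and 0.055% in any other library. Igkv4-55 took 25.6% in KO 1 and 10.5% in WT 4, against at most 3.26% elsewhere. Igkv3-2 took 12.7% in WT 1 and 12.9% in WT 2, and at most 1.11% in the other 5 libraries. In the heavy chain, Ighv1-18 took 33.5% in KO 2 and 23.5% in WT 2, against at most 0.636% elsewhere. Class-switched Ighg2c was at 46.9, 0.685 and 1.12 CPM in KO and 0.522, 107, 457 and 111 CPM in WT.

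The spread of WT 1 was not limited to neutrophil and immunoglobulin genes. Of the 355 genes with a WT range over 2, 260 had a WT mean of at least 5 CPM, and WT 1 was the lowest library in 204 of them and the highest in 15. Only 57 of the 260 were immunoglobulin genes and 19 were late neutrophil genes, and 39 had provisional symbols. The others included the dendritic cell genes Xcr1, at 9.35, 22.7 and 18.4 CPM in KO and 4.04, 28.9, 30.3 and 54.6 CPM in WT, and Zbtb46, at 2.88, 6.47 and 4.50 CPM in KO and 1.92, 18.2, 12.1 and 22.9 CPM in WT. Cd36, a scavenger receptor, was at 10.7, 15.03 and 16.7 CPM in KO and 2.45, 21.1, 16.3 and 44.4 CPM in WT. Id2, a factor of dendritic and innate lymphoid cells, was at 43.8, 54.0 and 47.2 CPM in KO and 22.2, 157, 110 and 215 CPM in WT. In these genes every KO library stood above WT 1 and below the other WT libraries, except Cd36 in KO 3, which was slightly above WT 3.

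**Figure D5:**
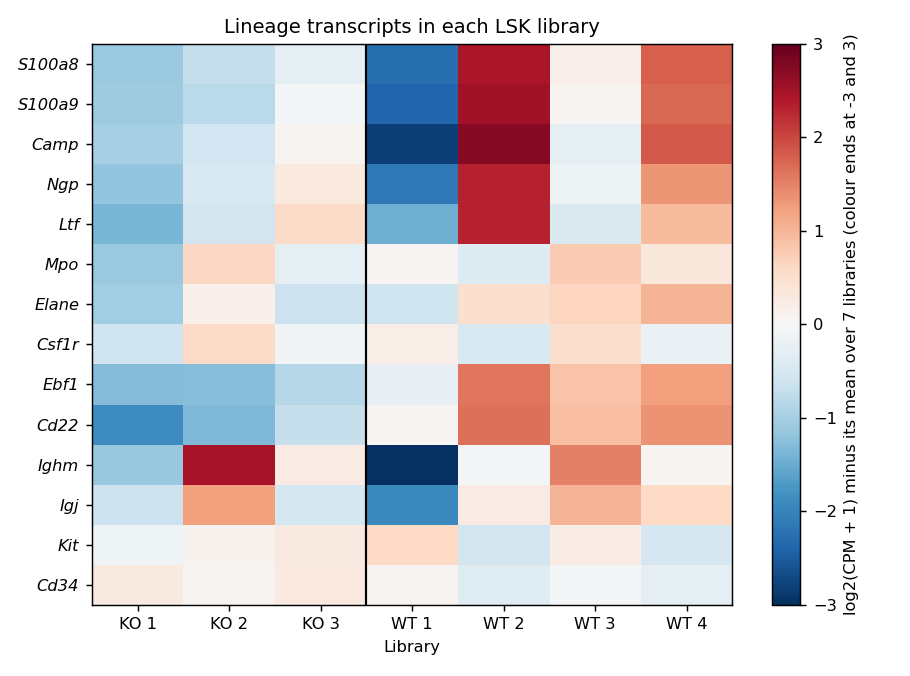
Log2(CPM + 1) of 14 lineage genes in each LSK library, shown as the difference from each gene's mean over the 7 libraries (red above, blue below, colours end at -3 and 3), with KO libraries left of the line. S100a8, Camp and Ngp are lowest in WT 1 and highest in WT 2, whereas Ighm is lowest in WT 1 and highest in KO 2, and Ebf1 and Cd22 are below their mean in all KO libraries.

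Without WT 1, 123 genes were called, 30 higher and 93 lower in KO, which is 0.706% of 17415 tested. They held 4 early B cell, 4 mature B and plasma cell, 4 monocyte, 3 megakaryocyte and platelet, 2 immunoglobulin and 0 late neutrophil granule genes. DESeq2 on all 7 libraries called 342 genes (85 higher and 257 lower, 1.94%), with 7 mature B, 7 monocyte, 5 early B, 7 platelet, 4 lymphoid priming and 3 late neutrophil granule genes among them, and all 14 of the genes called by edgeR. Over all tested genes 49.4% were negative. The sample descriptions carry a number of unstated meaning, whose first 3 digits are shared by KO 1 and WT 1, by KO 2, KO 3 and WT 2, and by WT 3 and WT 4. KO 1 and WT 1 were the lowest libraries of their groups in summed immunoglobulin, late neutrophil, primary granule and monocyte genes, and whether that number has a part in this was not tested.

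Called genes were also set against the other sorted populations, whose libraries were 3′-end libraries made with SMART-Seq2 amplification. Sequencing was shallower there, at 1250683 to 4401993 total counts in GMP and 3654667 to 5550165 in CFU-E, against 22813333 to 32196233 in LSK. In edgeR's interaction test the KO effect differed in 0 of 16288 genes (0%) between LSK and GMP. At an unadjusted p of 0.05 it differed in 1732 genes, and no other tool was run. Populations of different kit and depth shared each fit, so 0 genes does not show equal effects. Stag2 itself had a log2 fold change of -0.55 ± 0.228 in GMP, beside -1.20 in LSK and -1.10 ± 0.18 in CFU-E. Its difference between LSK and GMP was -0.66 ± 0.323 (adjusted p = 0.477). Between LSK and CFU-E the KO effect differed in 7 of 16474 genes (0.0425%). Cnn3 was the one gene called in LSK whose effect differed: in CFU-E it was at 1.16 ± 0.555 CPM in KO (SD, n = 4), against 36.8 ± 2.26 CPM in WT (n = 3), a log2 fold change of -5.10, and the difference between LSK and CFU-E was 2.83 ± 0.387 (edgeR interaction test, adjusted p = 0.0207). In GMP, Cnn3 was at 0.742 ± 0.763 CPM in KO (SD, n = 4) and 8.20 ± 1.33 CPM in WT (n = 3). Bzrap1, Gm2a and D18Ertd653e had GMP log2 fold changes of -3.18 ± 0.269, -1.52 ± 0.239 and 2.05 ± 0.373, beside -1.99, -1.33 and 1.74 in LSK. The adjusted p for the difference was 0.387, 0.925 and 0.851. Other values lay nearer to 0, with Bzrap1 at -0.05 ± 0.451 in CFU-E and Samd14 at 0.21 ± 0.624 in GMP. Their differences from LSK were -1.96 ± 0.536 and 1.93 ± 0.749 (edgeR interaction test, adjusted p = 0.316 and 0.422). Gria3 was abundant in GMP, at 47.4 ± 14.3 CPM in KO and 87.7 ± 35.6 CPM in WT (SD, n = 4 and 3), and near 0 in CFU-E. Samd14 was at 287 ± 58.1 CPM in KO and 199 ± 11.8 CPM in WT in CFU-E, a log2 fold change of 0.52 ± 0.207, and its difference from LSK did not pass (1.63 ± 0.293, adjusted p = 0.0684). Nxph1 had no count in GMP and Slc16a11 none in CFU-E, so no comparison could be made there.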

How the data were processed

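Bone marrow was depleted of lineage-positive cells and sorted into LSK, and TRIzol RNA was amplified from full transcripts, per the labels' protocols. The deposited values are raw read counts per gene, made by the authors; the submitters' processing notes name STAR 2.4, HTSeq 0.6.1, DESeq2 and the mouse build mm9. The annotation and the strand setting are not stated in the material used here. The table holds 30733 genes, 82 of them without a count in these libraries.

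KO was compared with WT over the 7 LSK libraries with edgeR 4.0.16 in R 4.3.3 (filterByExpr with a minimum count of 10 and a minimum total of 15, TMM scaling, quasi-likelihood F test, Benjamini-Hochberg adjustment over 17664 genes, threshold 0.05). Each standard error was obtained by dividing the log2 fold change by the root of its F statistic. Printed levels are TMM-scaled CPM. Interactions with GMP and CFU-E were fitted by the same method with both populations scaled together, and with flow cell as a covariate for CFU-E. The kits differ between populations. Alternatives used DESeq2 1.42.0, limma 3.58.1, other scaling and filters, neutrophil or immunoglobulin level as a covariate, blocks, and libraries left out. The fits were tested on simulated data.

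The 28 gene lists (763 distinct members, of which 756 are in the table and 7 were not analysed here) and the members were chosen with earlier results of these data known. Named genes are the called genes, the 8 next smallest p in each direction among genes without overlap whose mean reached 5 CPM, up to 3 members of each list by p, and cohesin genes. Genes given by their levels alone were chosen after their values were seen. Gene order comes from RefSeq, and V segments from GENCODE M21 (GRCm38), aligned with Biopython 1.88. No coordinates of the deposited data were used. 1 called gene and 2 list members are not reported here by name.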

Additional observations from a re-analysis of the deposited data

Results flagged for a closer look

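Of 102 values checked for a WT library far from the other 3 WT libraries, 9 stood out. Chance gives about 1 in 20 groups, but the values included genes picked for a wide WT range, to which 7 of the 9 belong (the exceptions are Igkj2 and Sgol1), so the 2 rates cannot be compared. Of these, 8 were immunoglobulin genes, and each was set apart by 1 library. WT 2 stood alone in Ighv1-18, at 136.9 CPM, with the other WT libraries at up to 15.7 CPM, and in Igkv1-110, at 378.6 CPM, with the others at up to 43.0 CPM. WT 3 stood alone in Igkv3-10 at 131.3 CPM, Igkv4-57-1 at 147.3 CPM, Igkv4-74 at 438.8 CPM and Igkv6-32 at 72.8 CPM, and no other WT library exceeded 1.21 CPM in these segments. WT 4 stood alone in Igkv9-124 at 159.7 CPM, with the others at up to 0.751 CPM. WT 1 was low in Igkj2, a kappa joining segment, at 62.89 CPM, with the others between 640.9 and 752 CPM. WT 1 was high in Sgol1, which encodes the shugoshin that protects cohesin at centromeres, at 69.51 CPM, with the others between 49.5 and 50.2 CPM.

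Cnn3 was the called gene whose KO effect differed between LSK and CFU-E by the interaction test, by 2.83 ± 0.387 on the log2 scale (edgeR, adjusted p = 0.0207), since its level in CFU-E was 1.16 CPM in KO and 36.8 CPM in WT.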

How the results depend on the processing

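The main count of 14 genes lay within 1.5 times of that with DESeq2's size factors, robust moderation, a stricter filter, and immunoglobulin and neutrophil genes left out. It was 342 with DESeq2's Wald test, 22 with limma-voom and sample weights, 38 with no filter on low counts, 7 with the neutrophil level and 6 with the immunoglobulin level as a covariate (7 and 5 among the 14), and 1 without WT 2 and WT 4, which was not among the 14. Leaving out each library in turn gave 0 to 123 genes, with Stag2 between -1.27 and -1.14 on the log2 scale. Stag2 was no longer called without WT 2 and WT 4 (-1.20, adjusted p = 0.0873) or, an alternative added after seeing the data, without KO 1 and WT 1 (-1.21, adjusted p = 0.0522). The cause was not tested.

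Replicate numbers did not pair the libraries: same-numbered KO and WT libraries correlated at 0.085, 0.047 and 0.035 in their deviations from the group means. With the replicate block edgeR called 0 genes, with 902 at an unadjusted p of 0.05, and Stag2 was at -1.22 (adjusted p = 0.22). A block on the first digits of the description number called 6 genes, 3 of them among the 14, with Stag2 at -1.28 (adjusted p = 0.0966).

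Of the 57 single genes under 20 settings, none of the values reversed; 938 kept their side of the threshold, 116 lost a call and 85 gained one. Of list medians, 42 moved by more than the spread and 515 did not. With 3 and 4 libraries a group, their number limits the precision.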
